A study of Saccharomyces pastorianus with 12 samples.

Results

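The autophagy-related (ATG) genes were taken as every gene copy whose name is ATG followed by a number, with or without a copy number behind it. This gave 61 copies of the 11312 that the count tables list. They belong to 34 gene symbols, of which 27 have a pair of copies (written _1 and _2) and 7 have 1 copy (ATG1, ATG13, ATG15, ATG16, ATG22, ATG34 and ATG41). Each of the 61 copies had a readable count in each of the 12 libraries, the lowest being 5 reads, and all 61 passed the expression filter. The organism, Saccharomyces pastorianus, is the hybrid yeast of lager brewing and carries genes of both of its parent species. Which parent gave which copy is not recorded in the tables. The copies of a symbol can share reads, so the value of a single copy is uncertain.

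The samples were wort fermentations by a pair of lager strains, SpIB1 and SpIB2, kept at 16 °C for 5 days and sampled on day 2 and on day 5. Each of the 4 groups (SpIB1 day 2, SpIB1 day 5, SpIB2 day 2 and SpIB2 day 5) has 3 libraries of polyA RNA. The labels give no genotype beyond the strain name and no added agent, and they do not say whether replicates were separate fermentations, so p-values here reflect the spread among these 3 samples per group, and that spread may be technical. The series was set up around the strains' use of maltose and maltotriose, and its design gives the strain difference on each day, the day effect in each strain, and the difference between the day effects. The RNA came from whole cultures, so more cells with a transcript and more transcript per cell cannot be told apart.

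Autophagy carries cytoplasm, organelles and aggregates to the vacuole, the degradative compartment of yeast, inside double-membraned vesicles called autophagosomes. When nutrients are ample, the TORC1 kinase holds the Atg1 kinase complex inactive. On starvation that complex assembles at the vacuole, Atg9 vesicles supply the first membrane, a phosphatidylinositol 3-kinase marks it, and Atg2 with Atg18 feeds it lipid. The ubiquitin-like protein Atg8 is attached to the membrane by Atg7, Atg3 and the Atg12-Atg5-Atg16 complex, and receptor proteins bind both Atg8 and a chosen cargo such as a mitochondrion or a piece of endoplasmic reticulum. Yeast in the last days of a fermentation meets falling nutrients, and nutrient starvation is the classic trigger of the pathway.

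Library totals ran from 5133175 to 7922547 reads over the copies readable in all libraries. In CPM, the read count scaled to one fixed library size, the 3 reads that a count of 0 allows come to 0.379 to 0.584, for counting error only. Replicates correlated at a Pearson r of 0.963 to 0.989 in SpIB1 over log2 CPM. A library of each SpIB2 day stood apart from its pair, replicate 3 on day 2 (r of 0.897 and 0.906) and replicate 1 on day 5 (0.923 and 0.915). In SpIB2 day 5 replicate 1 the 10 most abundant copies held 10.4% of all reads, against 5.12 to 8.87% in the other 11 libraries, and its TMM scaling factor (edgeR's correction for such differences in composition) was 0.509, against 0.868 to 1.35. Levels below are TMM-scaled CPM. They are compared between samples and not between genes, whose lengths the files do not give.

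On day 5 a larger share of reads came from autophagy genes in SpIB2 than in SpIB1, and than in SpIB2 on day 2. The 61 copies took 0.571, 0.564 and 0.548% of all reads in the SpIB2 day 5 libraries. They took 0.273, 0.285 and 0.209% in SpIB2 on day 2, 0.319, 0.302 and 0.325% in SpIB1 on day 2, and 0.289, 0.387 and 0.344% in SpIB1 on day 5. All 3 SpIB2 day 5 libraries lay above the other 9. A percent of all reads scales each library by its total, without TMM, so it depends on the other reads of that library. Within these reads the largest difference in share was that of the receptors of selective autophagy, which made up 49.2, 42.6 and 43.7% of all ATG reads in SpIB2 on day 5 and 23.3 to 29.3% in the other 9 libraries. The Atg8 conjugation genes made up 26.5, 29.9 and 29.4% there, against 17.6 to 25.9% elsewhere. The Atg1 kinase complex made up 7.98 ± 0.982% of ATG reads in SpIB2 on day 5 (SD, n = 3) and 14.3 ± 0.936% on day 2, and the Atg9 and lipid transfer genes 6.34 ± 0.882% and 14.7 ± 0.590%, as shares of different totals. By symbol, ATG8, ATG32 and ATG39 held 19.7, 19.4 and 12.6% of ATG reads in SpIB2 on day 5 (means, n = 3). In SpIB1 on day 5 they held 14.0, 8.04 and 6.89%. Much of the larger ATG share in SpIB2 on day 5 thus lay in a few symbols. These shares were not tested.

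Copy by copy, 29 of the 61 were higher in SpIB2 than in SpIB1 on day 5 and 3 were lower at an adjusted p under 0.05 (edgeR quasi-likelihood test, Benjamini-Hochberg over 10659 copies). Of all copies tested, 29.9% were higher and 26.5% lower. The median ATG log2 fold change was 0.77, against 0.03 over all copies. From day 2 to day 5 in SpIB2, 29 copies rose and 1 fell (21.8% and 23.5% of all copies), with a median of 0.60 against -0.10. In SpIB1 0 copies were called in either direction over the same days by edgeR (0.863% of all copies rose and 2.61% fell), with a median of -0.16 against 0. At an unadjusted p under 0.05, 3 ATG copies were higher and 5 lower in SpIB1. DESeq2 called 2 higher and 3 lower, and limma voom 0 and 0. The day effects themselves differed in 23 copies, all larger in SpIB2 (14.6% of all copies), and 0 were smaller (11.9% of all copies, 0 also at an unadjusted p under 0.05 and by DESeq2), with a median of 0.84 against -0.07. These comparisons share libraries with each other, so their counts are not independent of each other.

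On day 2 the picture was mixed: 8 copies were higher and 10 lower in SpIB2 (19.3% and 16.0% of all copies), with a median of 0.08 against 0.04. They numbered 5 and 6 without SpIB1 day 2 replicate 1. Without SpIB2 day 2 replicate 3 the higher count was 14, and without SpIB2 day 5 replicate 1 the lower count was 16. The lower count was also 6 when replicate 3 of SpIB1 day 2 was left out, and when replicate 1 of SpIB2 day 2 was. When both SpIB2 libraries that stood apart were left out, the higher and lower counts were 16 and 15 on day 2, 30 and 5 on day 5 (27 of the 29 higher calls remained), 3 and 7 for the day effect in SpIB1, 20 and 1 for the day effect in SpIB2 (19 of the 29 remained), and 21 and 0 for the difference of the day effects (20 of the 23 remained). The last count was 15 without SpIB1 day 2 replicate 3 and 12 without SpIB1 day 5 replicate 1. Leaving out libraries can move the calls over all copies too, so these moves cannot be read as particular to ATG copies. Scaling by library totals without TMM shifted the log2 fold change of all copies by a median of -0.75 on day 5, -0.44 for the day effect in SpIB2 and -0.71 for the difference of the day effects. The calls were then 16 higher and 8 lower (14.1% and 45.6% of all copies), 17 and 3 (12.3% and 33.9%), and 10 and 2 (6.49% and 26.8%). The ATG median was then 0.63, 0.69 and 0.85 above the median of all copies. A change of scaling moves all copies by nearly the same amount, so this gap could hardly change and does not test the scaling.

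**Figure D1:**
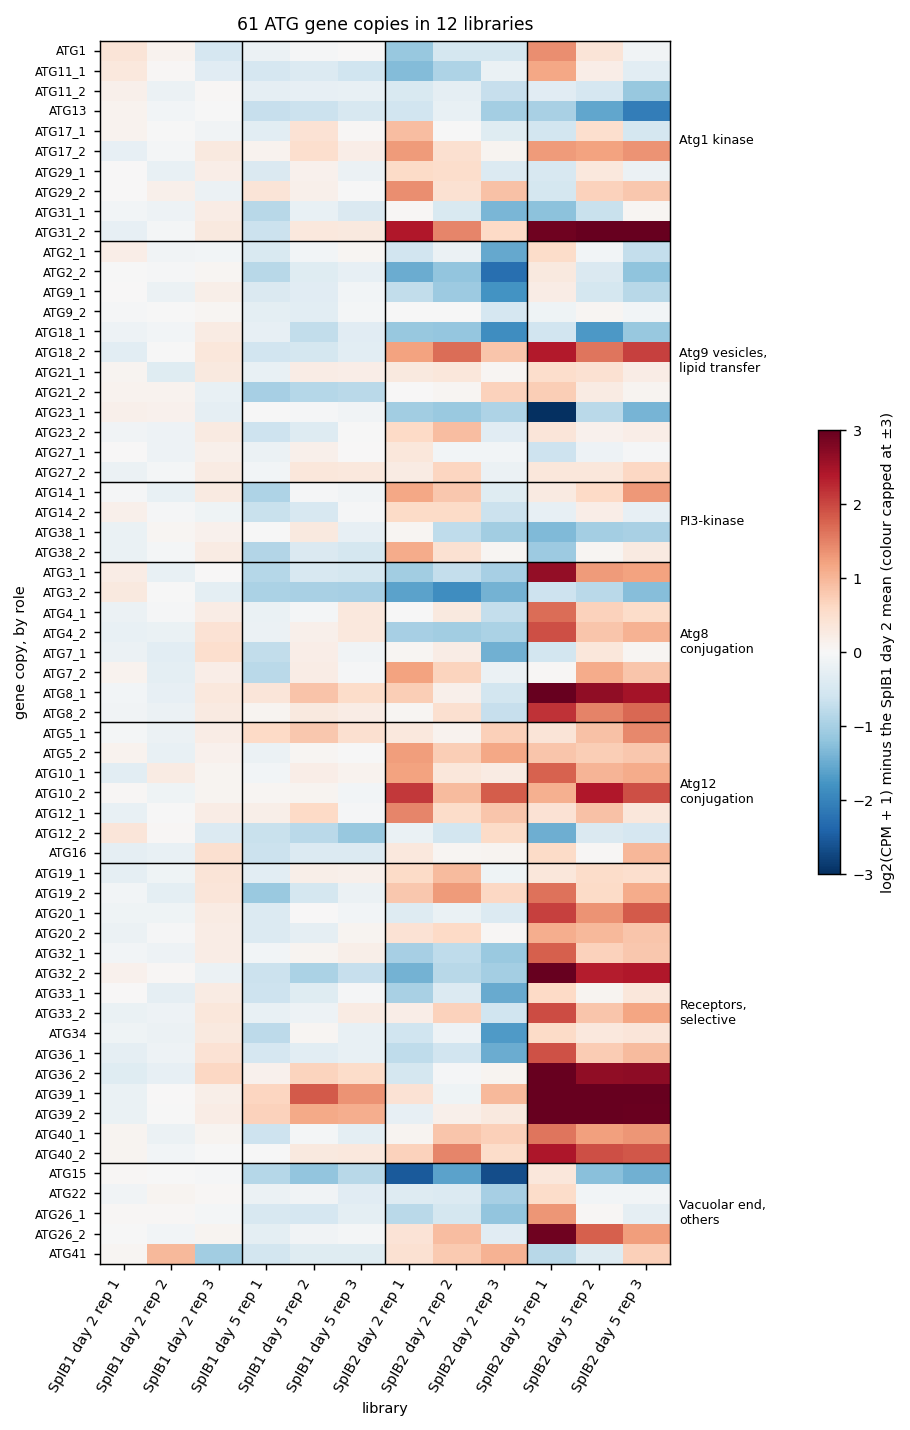
Level of each of the 61 ATG copies (rows, grouped by role) in each of the 12 libraries (columns), as log2(CPM + 1) minus the mean of the SpIB1 day 2 libraries, with colour capped at 3 in both directions. The red block lies in the SpIB2 day 5 columns, in the rows of the receptors and of Atg8 conjugation.

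Receptors for selective autophagy, with the proteins that help them, were the role with the most calls on day 5 and over the days in SpIB2. On day 5, 12 of their 15 copies were higher in SpIB2 and 0 lower (median log2 fold change 1.72), and in all 15 every SpIB2 library lay above every SpIB1 library (31.2% of all copies did so). From day 2 to day 5 in SpIB2, 13 rose and 0 fell (median 1.28), while in SpIB1 0 of 15 passed the test (median -0.16). Of all copies, 29.9% were higher and 26.5% lower on day 5, and 21.8% rose and 23.5% fell in SpIB2. The day 5 count was again 12, and the SpIB2 day effect count 10, when both SpIB2 libraries that stood apart were left out. Calls over all copies can move in that fit too, so these counts cannot be set against the shares above. With library totals the receptor counts were 9 and 8 (14.1% and 12.3% of all copies).

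Atg32, the receptor on the outer mitochondrial membrane that marks mitochondria for degradation, had the ATG copy with the largest strain difference on day 5 and the largest day effect in SpIB2. ATG32_2 stood at 2756, 731 and 745 CPM in SpIB2 on day 5, against 52.2, 78.9 and 69.2 CPM there on day 2. SpIB1 had 155, 144 and 125 CPM on day 2 and 89.2, 72.4 and 87.5 CPM on day 5. No library of another group reached the lowest SpIB2 day 5 value, and replicate 1 lay far above the other pair. The strain difference on day 5 was 17.0-fold (log2 fold change 4.09 with an SE of 0.51, edgeR adjusted p = 2.43e-05), and the rise within SpIB2 had a log2 fold change of 4.40 ± 0.52 SE (edgeR adjusted p = 6.68e-05). Without SpIB2 day 5 replicate 1 these were 3.15 and 3.46, and with library totals 3.09 and 3.72. On day 2 the copy had a log2 difference of -1.08 (edgeR adjusted p = 0.0802).

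ATG32_1 changed less. It had 61.7, 73.1 and 57.1 CPM in SpIB2 on day 2 and 435, 201 and 216 CPM on day 5, and in SpIB1 118, 112 and 144 and 117, 132 and 141 CPM. The SpIB2 libraries were thus the lowest of the day 2 groups and the highest of the day 5 groups. The copy was lower in SpIB2 on day 2 (log2 fold change -0.96 with an SE of 0.32, edgeR adjusted p = 0.03) and higher on day 5 (log2 fold change 1.13 with an SE of 0.32, edgeR adjusted p = 0.0078). The day 2 call ended without any 1 of 5 libraries: SpIB1 day 2 replicate 1 (-1.002), 2 (-1.03) or 3 (-0.87), SpIB2 day 2 replicate 1 (-0.94) or 3 (-0.89). The day 5 call ended with library totals (0.24). The rise within SpIB2, 2.15 ± 0.33 SE, was called under each alternative tried. Both ATG32 copies together held 19.4 ± 7.80% of all ATG reads in SpIB2 on day 5 (SD, n = 3), and 5.29 ± 0.885% there on day 2.

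Atg39, a receptor of the nuclear envelope that directs parts of the nucleus and perinuclear endoplasmic reticulum to autophagy, had both copies higher. ATG39_1 stood at 571, 747 and 604 CPM in SpIB2 on day 5 and at 69.7, 46.8 and 103 CPM on day 2. Its SpIB1 values were 45.1, 51.8 and 58.9 CPM on day 2 and 81.4, 187 and 134 CPM on day 5, so that the SpIB1 libraries of the days did not overlap either. The SpIB2 rise was 8.77-fold (log2 fold change 3.13 with an SE of 0.39, edgeR adjusted p = 9.37e-05), while the change in SpIB1 was not called (log2 fold change 1.37 with an SE of 0.37, edgeR adjusted p = 0.0562). ATG39_2 went from 21.8, 29.0 and 32.0 to 446, 262 and 208 CPM in SpIB2, and was at 22.3, 25.8 and 30.2 and then 42.7, 58.3 and 56.6 CPM in SpIB1. Here too the SpIB1 day 5 libraries lay above those of day 2 without passing the test (log2 fold change 1.01 with an SE of 0.31, edgeR adjusted p = 0.0956), and the SpIB2 day effect was 3.46 ± 0.34 SE (edgeR adjusted p = 1.95e-05). On day 5 the strain differences were 2.26 ± 0.37 SE and 2.54 ± 0.32 SE for the copies. ATG39_1 and ATG39_2 were called in SpIB1 in 7 and 5 of 22 alternatives, among them DESeq2 and the fit of only the 6 SpIB1 libraries. Summed over both copies, ATG39 was the 1 ATG symbol of 34 called in SpIB1 (log2 fold change 1.26 with an SE of 0.31, edgeR adjusted p = 0.0432).

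The other receptors differed in degree. Atg36 binds peroxisomes. ATG36_2 went from 11.4, 16.4 and 18 to 296, 111 and 113 CPM in SpIB2, with SpIB1 at 18.7, 27.4 and 25.1 CPM on day 5. Its SpIB2 libraries of day 5 were the highest of all 12, and replicate 1 exceeded the other pair. The strain difference was 2.87 ± 0.41 SE (edgeR adjusted p = 6.92e-05) and 2.23 without that library. The rise within SpIB2 was 3.50, and 2.87 without it. ATG36_1 had 90.0, 40.0 and 45.8 CPM in SpIB2 on day 5 and 16.1, 18.6 and 19.7 CPM in SpIB1, without overlap (log2 fold change 1.68 with an SE of 0.34, edgeR adjusted p = 0.000826). Atg20, a sorting nexin that forms a complex with Snx4 in selective autophagy, had ATG20_1 at 278, 169 and 239 CPM in SpIB2 on day 5 and 49.7, 67.2 and 62.2 CPM in SpIB1 (log2 fold change 1.94 with an SE of 0.27, edgeR adjusted p = 5.18e-05), with no overlap between the strains. Atg40, a receptor for peripheral endoplasmic reticulum, was higher in both copies on day 5, ATG40_1 by 1.72 ± 0.27 SE and ATG40_2 by 1.93 ± 0.27 SE (edgeR adjusted p = 0.000118 and 6.11e-05). Atg19 and Atg34 are the receptors of the cytoplasm-to-vacuole (Cvt) pathway, which delivers the vacuolar hydrolases Ape1 and Ams1 as cargo. ATG19_1 had a day 5 difference of 0.44 and ATG34 of 0.71, neither of which passed the test (edgeR adjusted p = 0.222 and 0.0898), and ATG19_2 was higher by 1.78 ± 0.33 SE. Atg33, a mitochondrial protein needed for mitophagy, had ATG33_2 higher on day 5 by 1.49 ± 0.36 SE, and 0.63 with library totals, where the call ended. ATG33_1 had a day 5 difference of 0.69 (edgeR adjusted p = 0.0531), and rose within SpIB2 by 1.28 ± 0.29 SE.

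Atg8 and the enzymes that attach it to membrane have 8 copies. On day 5, 5 of them were higher in SpIB2 and 0 lower (median 1.15), and from day 2 to day 5 in SpIB2 6 rose and 0 fell (median 1.49). In these comparisons 29.9% and 21.8% of all copies were higher, and 26.5% and 23.5% lower. The higher counts of the 8 copies were 6 and 5 with both libraries that stood apart left out. Calls over all copies can move in that fit too, so these counts cannot be set against the shares above. With library totals the higher counts of the 8 copies were 3 and 4 (14.1% and 12.3% of all copies), and ATG3_2 was then called lower on day 5. On day 2 the 8 copies had 0 higher calls and 2 lower calls by edgeR (19.3% and 16.0% of all copies, median -0.19). In SpIB1, 0 of 8 passed the test over the days (median -0.06).

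Atg8 itself decorates the autophagosome and is the usual marker of the process, and its gene is repressed by Ume6 when nutrients are ample. ATG8_1 stood at 1478, 1099 and 969 CPM in SpIB2 on day 5, against 286, 191 and 118 CPM on day 2. SpIB1 had 161, 146 and 216 CPM on day 2 and 219.9, 313 and 251 CPM on day 5. The SpIB2 day 5 libraries lay above all others, and the SpIB1 libraries of day 5 lay just above those of day 2, a difference that did not pass (log2 fold change 0.59, edgeR adjusted p = 0.43). On day 5 the strains differed 4.52-fold (log2 fold change 2.18 with an SE of 0.38, edgeR adjusted p = 0.000296), and the SpIB2 rise was 5.96-fold (log2 fold change 2.58 ± 0.38 SE). ATG8_2 had 442, 278 and 326 CPM in SpIB2 on day 5 and 103, 138 and 60.2 CPM on day 2, with SpIB1 at 91.4, 86.8 and 119 and 104, 121 and 115 CPM. Its day 5 libraries of SpIB2 were again the highest, with a strain difference of 1.62 ± 0.33 SE and an SpIB2 day effect of 1.80 ± 0.33 SE (edgeR adjusted p = 0.000963 and 0.0011). On day 2 neither copy differed between the strains by the test (log2 fold changes 0.19 and 0.02, edgeR adjusted p = 0.716 and 0.975).

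Atg3, the conjugating enzyme that transfers Atg8 to lipid, had both copies called, copy 1 on day 5 and copy 2 on day 2. ATG3_1 went from 43.9, 55.0 and 45.2 CPM on day 2 to 578, 225 and 212 CPM on day 5 in SpIB2, and was at 106, 77.8 and 92.4 and then 50.2, 65.3 and 62.6 CPM in SpIB1. The SpIB2 libraries lay below those of SpIB1 on day 2 (log2 fold change -0.94, edgeR adjusted p = 0.0572) and above them on day 5. The SpIB2 rise was 2.81 ± 0.38 SE (edgeR adjusted p = 0.000158) and the day 5 strain difference 2.51 ± 0.38 SE (edgeR adjusted p = 9.95e-05). Without SpIB2 day 5 replicate 1 these were 2.18 and 1.87. ATG3_2 had 56.1, 47.0 and 65.1 CPM in SpIB2 on day 2, below the 214, 174 and 142 CPM of SpIB1 (log2 fold change -1.66 with an SE of 0.27, edgeR adjusted p = 0.000441). On day 5 the strains overlapped at 112, 99.4 and 71.1 and 89.3, 88.3 and 86.2 CPM (log2 fold change 0.10 with an SE of 0.26, edgeR adjusted p = 0.768, and -0.70 with library totals, adjusted p = 0.0296).

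Atg4, the protease that primes Atg8 and later frees it from membrane, had ATG4_2 at 28.0, 27.1 and 28.9 CPM in SpIB2 on day 2 and 220.4, 102 and 118 CPM on day 5. The SpIB1 values of the copy were 48.2, 48.9 and 76.9 and 49.8, 63.2 and 70.8 CPM. The SpIB2 libraries lay below SpIB1 on day 2 and above it on day 5. The SpIB2 rise was 2.39 ± 0.32 SE (edgeR adjusted p = 0.000158), the day 5 difference 1.26 ± 0.31 SE (edgeR adjusted p = 0.00357, and 0.38 with library totals, where the call ended) and the day 2 difference -1.05 ± 0.31 SE (edgeR adjusted p = 0.0187). The day 2 call ended without SpIB1 day 2 replicate 3 (-0.82), SpIB2 day 2 replicate 1 (-1.05) or replicate 2 (-1.03). The copies of Atg7, the enzyme that activates both Atg8 and Atg12, were called in none of the 5 comparisons. Their day 5 differences were 0.16 for ATG7_1 and 0.89 for ATG7_2 (edgeR adjusted p = 0.755 and 0.0553). ATG7_2 was called higher on day 5 in 7 alternatives. These were the fits without SpIB2 day 5 replicate 1 (1.14), SpIB1 day 5 replicate 2 (1.09) or SpIB2 day 2 replicate 1 or 3 (0.89 each), the one without both libraries that stood apart (1.14), DESeq2 and median-ratio size factors (0.95 each).

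**Figure D2:**
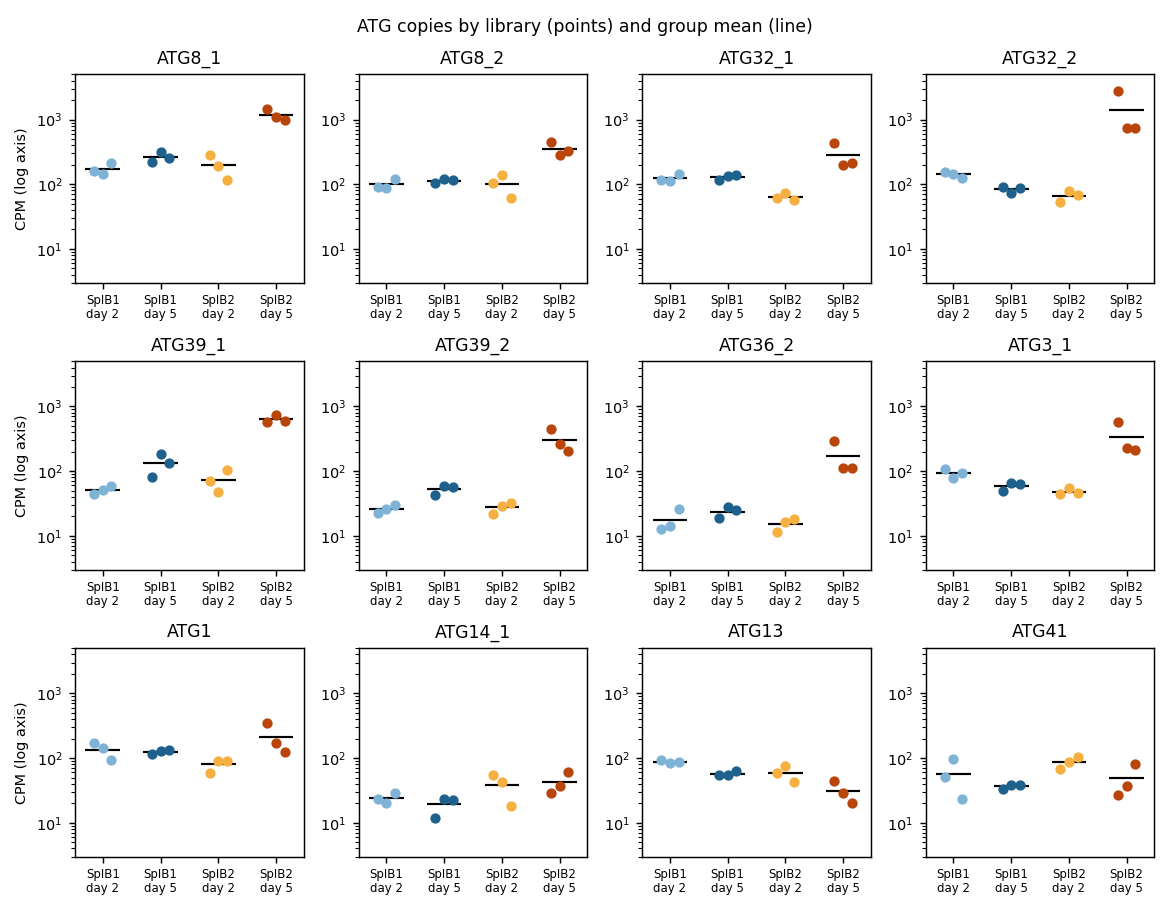
Level in CPM (log axis) of 12 ATG copies in each library (points), with the group mean as a line, for the 4 groups. In ATG8, ATG32, ATG39, ATG36_2 and ATG3_1 the SpIB2 day 5 libraries lie above all others, while ATG1, ATG14_1, ATG13 and ATG41 show overlap or smaller differences.

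The Atg1 kinase complex, which starts the process, had ATG11_1, ATG17_2 and ATG31_2 higher and ATG13 lower in SpIB2 on day 5, of 10 copies (median 0.21), and ATG1, ATG11_1 and ATG31_2 that rose and ATG13 that fell from day 2 to day 5 in SpIB2 (median -0.09). The 30% of copies higher on day 5 was near the 29.9% of all copies, while 10% were lower against 26.5%. Over the days in SpIB2 30% rose and 10% fell, against 21.8% and 23.5% of all copies. ATG1, the kinase, stood at 59.2, 90.4 and 90.5 CPM in SpIB2 on day 2 and 349, 171 and 122 CPM on day 5, and in SpIB1 at 172, 142 and 92.2 and 117, 127 and 132 CPM. The SpIB2 days did not overlap (log2 fold change 1.42 with an SE of 0.38, edgeR adjusted p = 0.00905), but on day 5 the strains did (log2 fold change 0.77 with an SE of 0.37, edgeR adjusted p = 0.0926). ATG13, the subunit through which TORC1 controls the kinase, had 44.3, 28.8 and 20.03 CPM in SpIB2 on day 5, against 54.0, 55.7 and 62.0 CPM in SpIB1 and 58.5, 74.4 and 42.5 CPM in SpIB2 on day 2. The strains did not overlap on day 5, while the SpIB2 days did, through replicate 1 of day 5 and replicate 3 of day 2. It was lower on day 5 than in SpIB1 (log2 fold change -0.89 with an SE of 0.29, edgeR adjusted p = 0.018) and fell within SpIB2 (log2 fold change -0.92 with an SE of 0.29, edgeR adjusted p = 0.0207). Both calls ended without SpIB2 day 5 replicate 2 (-0.84 and -0.87) or replicate 3 (-0.65 and -0.68), and the second also without SpIB2 day 2 replicate 2 (-0.71). The second also ended with only the 6 SpIB2 libraries in the fit (-0.90). ATG13 was at 93.3, 82.7 and 86.1 CPM in SpIB1 on day 2, above its day 5 libraries without overlap. That SpIB1 change was not called (log2 fold change -0.61, edgeR adjusted p = 0.269). It was called with only the 6 SpIB1 libraries (-0.59, edgeR adjusted p = 0.0224) and without both libraries that stood apart (-0.59). The day effects on ATG13 were not called different between the strains.

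Among the scaffold subunits, ATG31_2 was the exception in size. Atg31 joins Atg17 and Atg29 in the scaffold used during starvation. ATG31_2 had 10.8, 12.4 and 16.0 and 7.93, 16.3 and 16.0 CPM in SpIB1 on days 2 and 5, and 72.7, 37.2 and 20.2 and 103, 154 and 142 CPM in SpIB2. The strains did not overlap on either day. The differences were 1.73 ± 0.41 SE on day 2 and 3.31 ± 0.43 SE on day 5 (edgeR adjusted p = 0.00576 and 3.12e-05). Without SpIB2 day 2 replicate 1, its highest day 2 library, the former was 1.13. ATG31_1 had 10.99, 16.7 and 28.4 CPM in SpIB2 on day 5 and 14.6, 23.2 and 19.8 CPM in SpIB1, with overlap (log2 fold change -0.02, edgeR adjusted p = 0.961). The scaffold copy ATG17_2 was higher on day 5 by 1.05 ± 0.30 SE, and by 0.28 with library totals, where the call ended. ATG11_1, of the scaffold used in selective autophagy, had a day 5 difference of 0.99 (edgeR adjusted p = 0.0366) that fell to 0.47 without SpIB2 day 5 replicate 1 and lost its call in 10 of 22 alternatives.

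The Atg9 vesicle and lipid transfer proteins were split. On day 2, 1 of 12 copies was higher and 4 were lower in SpIB2 (median -0.05), and on day 5, 2 were higher and 1 lower (median 0.16). Among all copies 19.3% were higher and 16.0% lower on day 2, and 29.9% and 26.5% on day 5. Over the days in SpIB2, 21.8% of all copies rose and 23.5% fell. From day 2 to day 5 in SpIB2, ATG2_2, ATG18_2 and ATG9_1 rose (log2 fold changes 1.29, 0.78 and 0.86) and 0 fell. Without SpIB2 day 5 replicate 1 these were 0.84, 0.57 and 0.49, and 0 of the 12 copies were called higher. Atg18 binds the lipid made by the 3-kinase and works with Atg2, and its copies were the 1 pair called in opposite directions in the same comparison. ATG18_1 had 21.96, 22.9 and 29.0 CPM in SpIB1 and 10.6, 10.5 and 6 CPM in SpIB2 on day 2 (log2 fold change -1.45 with an SE of 0.31, edgeR adjusted p = 0.00324). ATG18_2 had 25.8, 32.2 and 41.3 CPM in SpIB1 and 76.3, 106 and 58.3 CPM in SpIB2 (log2 fold change 1.27 with an SE of 0.29, edgeR adjusted p = 0.0045). Neither copy overlapped between the strains, and the libraries of SpIB2 were the low ones for the first and the high ones for the second. On day 5 ATG18_2 stood at 173, 101 and 138 CPM in SpIB2 and 21.4, 22.1 and 25.9 CPM in SpIB1 (log2 fold change 2.57 with an SE of 0.30, edgeR adjusted p = 1.45e-05), and ATG18_1 was not called (-0.71, edgeR adjusted p = 0.0689).

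ATG2_2, for the lipid transfer protein itself, was lower in SpIB2 on day 2, at 18.8, 23.6 and 10.6 CPM against 53.6, 53.3 and 56.8 CPM in SpIB1 (log2 fold change -1.63 with an SE of 0.36, edgeR adjusted p = 0.00362), and the groups did not overlap. ATG9_1, for the membrane protein of the vesicles, was lower too (log2 fold change -1.19 with an SE of 0.31, edgeR adjusted p = 0.00963). On day 5 the libraries of both copies overlapped between the strains (log2 fold changes 0.13 and -0.04, edgeR adjusted p = 0.775 and 0.92). ATG23_1, for a partner of Atg9 in those vesicles, was low in SpIB2 on both days, at 9.56, 9.08 and 10.5 and 1.72, 11.5 and 7.26 CPM against 23.1, 22.6 and 17.0 and 20.6, 20.3 and 19.1 CPM in SpIB1. Its strain difference was -1.49 ± 0.38 SE on day 5 (edgeR adjusted p = 0.00462). The day 2 difference, -1.11 ± 0.37 SE (edgeR adjusted p = 0.0303), lost its call with library totals (-1.15), and without SpIB1 day 2 replicate 1 (-1.03) or 2 (-1.05). It was lost as well without SpIB2 day 2 replicate 1 (-1.10) or 2 (-1.06).

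Of the 3-kinase subunits and the Atg12 conjugation genes, edgeR called 0 of 4 and 0 of 7 copies over the days in either strain. In SpIB2 21.8% of all copies rose and 23.5% fell. DESeq2 called 0 of 4, but ATG5_1 and ATG10_1 higher in SpIB2 and ATG12_2 lower in SpIB1. In SpIB2, ATG38_1 and ATG38_2 were called lower without SpIB2 day 2 replicate 3 and ATG12_2 lower without replicate 2 of that day, while ATG10_1 was called higher without replicate 1 of that day and ATG5_1 higher without SpIB2 day 5 replicate 1. With library totals ATG38_1 and ATG5_2 were called lower there. With both libraries that stood apart left out, ATG5_1 was called higher in either strain and ATG12_2 lower in SpIB1. Atg14 is the subunit that gives the 3-kinase its autophagy role. ATG14_1 had 28.8, 36.8 and 60.1 CPM in SpIB2 on day 5 and 12.02, 23.3 and 22.1 CPM in SpIB1 (log2 fold change 1.13 with an SE of 0.39, edgeR adjusted p = 0.0223). The lowest SpIB2 library lay above the highest SpIB1 library, but the call ended without SpIB1 day 5 replicate 1 (0.85), with library totals (0.44) and without SpIB2 day 5 replicate 3 (0.78). ATG14_2 had 6.18, 8.66 and 6.16 CPM in SpIB2 on day 5 and 4.34, 5.12 and 7.24 CPM in SpIB1, a difference that was not called (log2 fold change 0.33 with an SE of 0.36, edgeR adjusted p = 0.445). ATG38_1, for a subunit that holds that complex together, was lower in SpIB2 on day 5, at 15.1, 18.8 and 19.6 CPM against 38.8, 48.5 and 33.4 CPM (log2 fold change -1.16 with an SE of 0.29, edgeR adjusted p = 0.00364), with no overlap.

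In the Atg12 branch ATG10_2 and ATG5_2 were higher in SpIB2 on both days. The copies of ATG5, ATG10, ATG12 and ATG16 had 3 of 7 higher and 0 lower in SpIB2 on day 2 (median 0.71, with 19.3% of all copies higher), and 4 of 7 higher and 0 lower on day 5 (median 0.89, with 29.9% of all copies higher). With library totals 1 copy was called higher on day 5 (14.1% of all copies were). ATG10_1 and ATG16, whose product joins the complex to membrane, were higher on day 5 (log2 fold changes 1.35 and 1.16, and 0.52 and 0.41 with library totals, where both calls ended). ATG12_1, for the ubiquitin-like protein, was higher on day 2 (log2 fold change 1.04 with an SE of 0.29, edgeR adjusted p = 0.0123), a call that ended with library totals (1.004), without SpIB1 day 2 replicate 1 (0.94) and without SpIB2 day 2 replicate 1 (0.73). ATG10_2, for the enzyme that joins Atg12 to Atg5, had 3.54, 3.06 and 3.68 CPM in SpIB1 and 18.2, 7.505 and 14.6 CPM in SpIB2 on day 2, and 3.59, 3.70 and 3.16 and 8.24, 22.5 and 15.8 CPM on day 5. The SpIB2 libraries were the higher ones on both days, without overlap (log2 fold change 1.97 with an SE of 0.38, edgeR adjusted p = 0.00159, and 2.17 ± 0.38 SE on day 5). ATG5_2 was at 14.7, 11.5 and 15.01 and 11.9, 14.3 and 13.5 CPM in SpIB1, and at 34.1, 23.6 and 31.8 and 25.1, 23.4 and 24.9 CPM in SpIB2, on days 2 and 5. It was higher in SpIB2 on day 2 by 1.12 ± 0.22 SE and on day 5 by 0.89 ± 0.22 SE (edgeR adjusted p = 0.00153 and 0.00333), the latter 0.12 with library totals, where the call ended.

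At the vacuolar end, ATG15, for the lipase that breaks down autophagic bodies inside the vacuole, was the copy furthest below SpIB1 on day 2. It had 205, 200.5 and 197 CPM in SpIB1 and 34.1, 64.9 and 30.8 CPM in SpIB2 (log2 fold change -2.21 with an SE of 0.45, edgeR adjusted p = 0.00214), without overlap. On day 5 the values were 110.4, 87.9 and 113 CPM in SpIB1 and 255, 83.3 and 73.1 CPM in SpIB2, which overlapped (log2 fold change 0.40, edgeR adjusted p = 0.446). Without SpIB2 day 5 replicate 1, the highest of these, the difference had the other sign (-0.41, edgeR adjusted p = 0.255), as it did with library totals (-0.57, edgeR adjusted p = 0.153). The rise within SpIB2 was 1.66 ± 0.44 SE (edgeR adjusted p = 0.00865). It was 0.85 without SpIB2 day 5 replicate 1, and 0.66 and no longer called without both libraries that stood apart. In all, 4 of the 5 copies of this group rose within SpIB2 (ATG15, ATG22, for a vacuolar exporter of amino acids, ATG26_1 and ATG26_2), and 1 was called without those libraries. With all libraries 21.8% of all copies rose. ATG26_2, for a sterol glucosyltransferase that peroxisome degradation needs in the yeast Komagataella, had 363, 166 and 114 CPM in SpIB2 on day 5 and 38.6, 44.1 and 44.98 CPM in SpIB1 (log2 fold change 2.33 with an SE of 0.41, edgeR adjusted p = 0.000331, and 1.71 without SpIB2 day 5 replicate 1). ATG41, a gene strongly induced by nitrogen starvation in Saccharomyces cerevisiae, had 51.7, 98.0 and 23.4 and 33.2, 38.3 and 38.0 CPM in SpIB1 and 68.6, 85.5 and 103 and 27.1, 37.2 and 81.5 CPM in SpIB2 on days 2 and 5. Its libraries overlapped between the days in each strain and between the strains on each day, and it was called in none of the 5 comparisons (SpIB2 day effect -0.81 ± 0.45 SE, edgeR adjusted p = 0.156). Without SpIB2 day 5 replicate 3 that day effect was called (-1.41, edgeR adjusted p = 0.0285), and the day 5 strain difference went from 0.42 to -0.18. Without SpIB1 day 2 replicate 2 the day effect in SpIB1 went from -0.66 to -0.04.

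**Figure D3:**
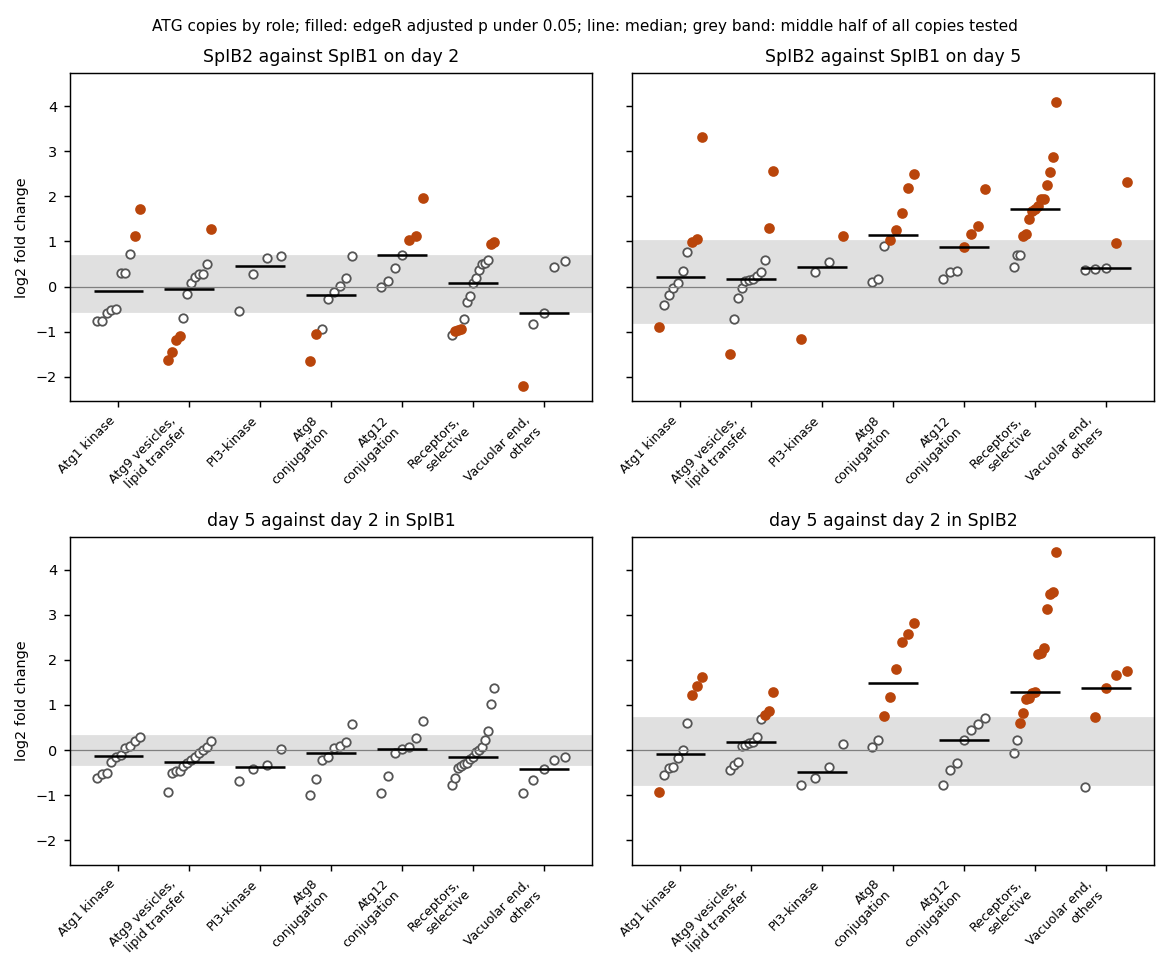
Log2 fold change of each ATG copy (points, filled where the edgeR adjusted p is under 0.05) by role, in 4 comparisons, with the median of each role as a line and the middle 50% of all copies tested as a grey band. On day 5 and over the days in SpIB2 many receptor and Atg8 conjugation copies lie above the band, and over the days in SpIB1 no point is filled.

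Patterns over the days can be read per copy. The 3 copies ATG32_1, ATG36_1 and ATG4_2 were called lower in SpIB2 on day 2 and higher on day 5. A further 6 (ATG15, ATG18_1, ATG2_2, ATG33_1, ATG3_2 and ATG9_1) were lower on day 2 and not called on day 5, and ATG23_1 was lower on both days. Higher on both days were 6 copies (ATG10_2, ATG18_2, ATG19_2, ATG31_2, ATG40_2 and ATG5_2). Of the 29 copies higher on day 5, 21 also rose within SpIB2, and 8 did not pass that test (ATG10_1, ATG10_2, ATG14_1, ATG16, ATG17_2, ATG19_2, ATG21_2 and ATG5_2). In all, 18 of the 61 copies were called in none of the 5 comparisons. These patterns were not counted over all copies, so they cannot be read as particular to ATG copies. The comparisons also share libraries: the day 5 difference and the SpIB2 day effect both use the SpIB2 day 5 libraries, so overlap between their calls is likely for any genes. The day 2 calls of ATG19_2 (log2 fold change 0.94), ATG36_1 (-0.98), ATG33_1 (-0.93) and ATG40_2 (0.99) each ended without 1 library or another. For ATG40_2 this was SpIB2 day 2 replicate 2 (0.64), for ATG19_2 that library (0.72), SpIB2 day 2 replicate 1 (0.997), SpIB1 day 2 replicate 1 (0.89) or 2 (0.80), or SpIB1 day 5 replicate 2 (0.91). For ATG33_1 and ATG36_1 it was SpIB1 day 2 replicate 1 (-0.93 and -1.11) or 3 (-0.83 and -0.75), SpIB2 day 2 replicate 1 (-0.89 and -1.05) or 3 (-0.69 and -0.73), and for ATG36_1 also SpIB1 day 2 replicate 2 (-1.06).

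The share of a symbol's reads on copy 1 compares the copies within a library and so needs no scaling between libraries. Between the strains it differed for 14 of the 27 ATG symbols with a pair of copies, lower in SpIB2 for 13 and higher for 1 (exact two-sided permutation test within days, adjusted over 3918 symbols). Over all symbols it differed for 64.3%, lower for 46.3% and higher for 18.0%, and the median difference was -9.95 percentage points for ATG symbols and -7.51 for all, values close to each other. The largest differences were those of ATG31, ATG18 and ATG23. For ATG31, copy 1 held 70.5, 66.3 and 66.4% of the reads in SpIB1 on day 2 and 64.8, 58.7 and 55.3% on day 5, against 27.6, 34.3 and 32.8% and 9.61, 9.77 and 16.6% in SpIB2. For ATG18 it held 46.0, 41.5 and 41.2% and 49.0, 39.0 and 42.4% in SpIB1, against 12.2, 9.01 and 9.33% and 8.54, 6.22 and 7.10% in SpIB2. In both the strains did not overlap on either day, with SpIB2 the lower. The strain differences, averaged over days, were -41.9 points for ATG31, -34.4 for ATG18 and -31.1 for ATG23. Each had an exact permutation p of 0.005, the smallest that 400 arrangements can give, and an adjusted p of 0.0106.

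ATG3 was the 1 ATG symbol whose copy 1 share was called higher in SpIB2. The share was 33.1, 30.9 and 39.4% on day 2 and 36.0, 42.5 and 42.1% on day 5 in SpIB1, and 43.9, 53.9 and 41% and then 83.7, 69.3 and 74.9% in SpIB2. The strain difference was 11.8 points on day 2 and 35.8 points on day 5 (exact permutation p = 0.005, adjusted p = 0.0106). For ATG32 the low shares were those of SpIB2 on day 5. Its copy 1 share was 43.1, 43.8 and 53.5% on day 2 and 56.6, 64.5 and 61.7% on day 5 in SpIB1, and 54.2, 48.1 and 45.2% and then 13.6, 21.6 and 22.5% in SpIB2. The strain difference was 2.36 points on day 2 and -41.7 points on day 5, and the test over both days did not pass (exact permutation p = 0.08, adjusted p = 0.109). Both copies of a symbol were called higher on day 5 for 9 of the 27 symbols, and both rose within SpIB2 for 10, against 12 and 5 with 1 copy called. Such pairs were not counted over all symbols, and copies can share reads, so these counts cannot be read as particular to ATG genes. With the copies summed, 17 of the 34 ATG symbols were higher and 2 lower on day 5 (28.3% and 26.7% of all 6175 symbols), and 17 rose and 1 fell within SpIB2 (22.2% and 24.4%).

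**Figure D4:**
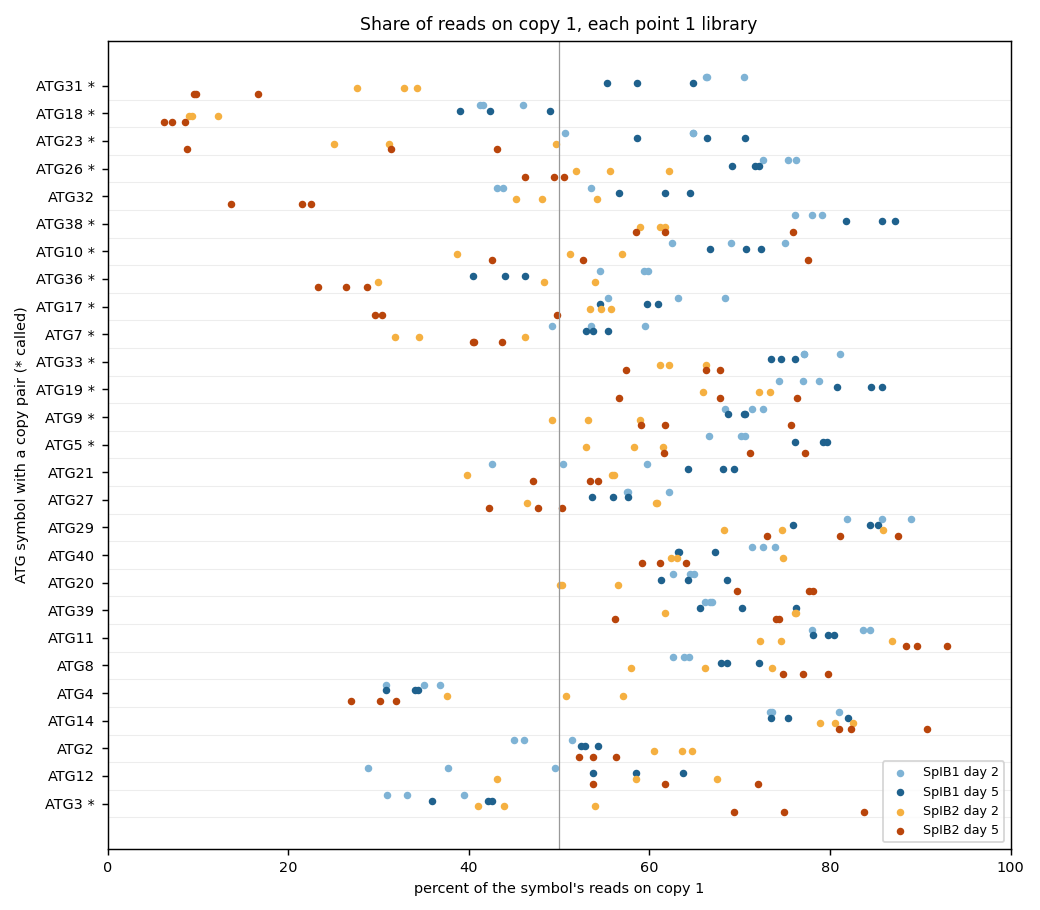
Percent of a symbol's reads on copy 1 in each library (points) for the 27 ATG symbols with a pair of copies, ordered by the strain difference, with an asterisk where the exact permutation test was called. In ATG31 and ATG18 the SpIB2 points lie left of the SpIB1 points on both days, and in ATG32 and ATG3 the SpIB2 day 5 points stand apart from the rest.

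Other genes of the pathway, matched by name as 98 further copies, were called in both directions. On day 5, 25 were higher and 26 lower in SpIB2 (25.5% and 26.5%, against 29.9% and 26.5% of all copies, median -0.17), shares near those of all copies. From day 2 to day 5 in SpIB2 14 rose and 28 fell (14.3% and 28.6%, against 21.8% and 23.5% of all copies, median -0.21), counts that were 8 and 29 without the libraries that stood apart, 8 and 28 without SpIB2 day 5 replicate 1, 8 and 9 with only the 6 SpIB2 libraries in the fit, and 9 and 50 with library totals. The difference of the day effects was called positive for 10 and negative for 5 (10.2% and 5.1%, against 14.6% and 11.9%). Within SpIB2, 5.56% rose and 38.9% fell for vacuole fusion, and 6.67% and 46.7% for the 3-kinase and its partners. For TORC1 and its control these were 7.14% and 28.6%, for the regulators 21.7% and 8.7%, and for Cvt cargo 25% and 25%. The TORC1 falls, the regulator rises and both cargo shares were near the 21.8% and 23.5% of all copies. Of 18 copies for fusion with the vacuole, 7 fell within SpIB2 and VTI1_2, for a membrane fusion protein, rose (1.56). Of 15 for the 3-kinase and its membrane partners, 7 fell, among them VPS34_2 and both copies of VPS15 (-1.34, -1.13 and -0.64), and CUE5_1 rose (0.92). Without SpIB2 day 2 replicate 2, or SpIB2 day 5 replicate 1 or 3, 4 of these 15 fell. Of 28 copies for TORC1 and its control, 8 fell and NPR2_2 and NPR3_3 rose (0.52 and 1.498), counts that were 10 and 0 without SpIB2 day 5 replicate 1. Of 23 for transcriptional regulators of ATG genes, GIS1_1, GIS1_2, RIM15_2 and both copies of RPH1 rose (2.59, 2.697, 1.38, 1.25 and 1.45), and UME6_1 and GCN4_2 fell (-0.89 and -0.89), counts that were 4 and 5 without SpIB2 day 5 replicate 1. The fall was called for 0 of the 23 without any 1 of 8 other libraries. Of 8 for cargo of the Cvt pathway, both copies of AMS1, a vacuolar mannosidase, rose (1.197 and 1.97) and both of LAP3 fell (-1.77 and -1.12), and 1 of the rises was called without SpIB2 day 2 replicate 1 or 3 or SpIB2 day 5 replicate 1. Apart from those of VPS34, RPH1 and UME6, these copies are named because they were called. For the catalytic subunit of the 3-kinase, VPS34_1 was lower in SpIB2 on both days, at 19.5, 28.1 and 18.5 and 17.2, 18.2 and 14.97 CPM against 43.6, 39.8 and 45.7 and 34.8, 32.0 and 37.7 CPM (log2 fold changes -0.97 and -1.06, edgeR adjusted p = 0.00362 and 0.0011). VPS34_2 was not called on day 5 (-0.78, edgeR adjusted p = 0.0758), but was with library totals (-1.56) and without SpIB1 day 5 replicate 3 (-1.02). VPS30_1, which encodes Atg6 of the same complex, was lower on day 5 (log2 fold change -0.88 with an SE of 0.25, edgeR adjusted p = 0.00776). VPS30_2 was higher in SpIB2 on day 2 (1.003, edgeR adjusted p = 0.0444), a call lost in 12 of 21 alternatives.

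SNX4_2, for the sorting nexin also known as Atg24 and a partner of Atg20, rose with the receptors. It had 72.0, 68.9 and 52.8 CPM on day 2 and 408, 230.3 and 238 CPM on day 5 in SpIB2, and 36.4, 58.8 and 52.1 CPM in SpIB1 on day 5 (log2 fold change 2.57 with an SE of 0.32, edgeR adjusted p = 1.96e-05), without overlap. SNX41_2, for another partner of Snx4, was higher on day 5 by 2.02 ± 0.31 SE (edgeR adjusted p = 0.000102). SNX4_1 was not called on day 5 (0.21, edgeR adjusted p = 0.537, and -0.66 with library totals, where it was called). Ume6, the DNA-binding repressor of ATG8, had less transcript in SpIB2: UME6_1 was at 10.5, 18.2 and 30.6 and 10.6, 9.31 and 12.1 CPM on days 2 and 5, against 67.2, 70.6 and 53.9 and 76.8, 53.8 and 70.4 CPM in SpIB1 (log2 fold changes -1.69 and -2.65, edgeR adjusted p = 0.00137 and 2.9e-05). UME6_2 was lower on day 2 (-1.43, edgeR adjusted p = 0.0156, not called without SpIB2 day 2 replicate 1 at -1.14) and not called on day 5 (-0.62, edgeR adjusted p = 0.207), but called there at -1.27 without SpIB2 day 5 replicate 1.

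Rph1, a histone demethylase that represses several ATG genes, had copies that rose within SpIB2, RPH1_1 by 1.25 ± 0.35 SE and RPH1_2 by 1.45 ± 0.38 SE (edgeR adjusted p = 0.0106 and 0.00761), 0.66 and 0.78 without SpIB2 day 5 replicate 1, and 0.64 and 0.57, no longer called, without both libraries that stood apart. On day 2 RPH1_2 was lower in SpIB2 (-1.39, edgeR adjusted p = 0.0113). YPT7_2, for the GTPase of vacuolar fusion, was higher in SpIB2 on day 2, at 178, 132 and 134 CPM against 52.5, 50.8 and 75.6 CPM (log2 fold change 1.31 with an SE of 0.27, edgeR adjusted p = 0.00213), without overlap, and on day 5 the difference was 0.54 (edgeR adjusted p = 0.095). Ape1, an aminopeptidase and the main Cvt cargo, split by copy. APE1_1 was lower in SpIB2 on day 5, at 201, 185 and 239 CPM against 376, 672 and 758 CPM in SpIB1 (log2 fold change -1.53 with an SE of 0.45, edgeR adjusted p = 0.0101). APE1_2 had 0 reads in each of the 6 SpIB1 libraries, and in SpIB2 954, 1409 and 747 CPM on day 2 and 822, 542 and 575 CPM on day 5. All APE1 reads of SpIB1 thus lay on copy 1. The difference of APE1_1 alone therefore cannot be read as less APE1 transcript in SpIB2, and the sum of its copies was not tested here.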

How the data were processed

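RNA was sequenced from 12 polyA libraries, 3 in each of 4 groups, from RNA with an integrity number above 8, per the labels' protocols. The authors deposited raw read counts per gene copy, 1 table per library. The submitters' processing notes name HTSeq 0.11.1, STAR 2.7.3a, edgeR 3.34.0 and Trimmomatic 0.38, with no role for any. How reads that fit more than 1 copy were counted, the strand setting, the genome build and its annotation are not given in these sources. Left out were 35 copies, none of them an ATG copy, with text in place of digits in a deposited count.

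Counts were analysed with edgeR 4.0.16 in R 4.3.3: filterByExpr, TMM scaling, 1 coefficient per group, and a robust quasi-likelihood fit over 12 libraries with 8 residual degrees of freedom. P-values were adjusted by Benjamini-Hochberg over 10659 copies for each of 5 comparisons and called under 0.05. The standard error (SE) is the log2 fold change divided by the root of F. Copy shares, tested with 20 or more reads a library on average, used an exact two-sided permutation within days. The scripts were tested on simulated data. DESeq2 1.42.0, limma 3.58.1 (voom), other scalings and filters, summed copies and left-out libraries were alternatives.

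The members, roles and lists were chosen with earlier results of these data known. Values per library are given for ATG1, ATG8, ATG14, ATG32, ATG39 and ATG41, for up to 4 copies called in each direction of a comparison with the largest change (and, in the higher group, a mean of 10 CPM or more), and for symbols whose copies were called in opposite directions. Up to 4 symbols with the largest called share difference are named. Other ATG copies with values were chosen after their values were seen. Pathway copies are VPS34, YPT7, RPH1, UME6 and APE1, and others that were called. No sequence or promoter was used here. Levels carry counting error of the totals given, 3 reads being the floor.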

Additional observations from a re-analysis of the deposited data

Results flagged for a closer look

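The day effects of the strains differed for 23 ATG copies (edgeR quasi-likelihood test of the difference, adjusted p under 0.05). Each value here is the log2 day effect in SpIB2 minus that in SpIB1, and each copy is given for that test. For 10 of them the call held under each alternative tried. These were ATG32_2 (5.17 ± 0.68 SE, edgeR adjusted p = 0.000546), ATG3_1 (3.45 ± 0.52 SE), ATG36_2 (3.08 ± 0.57 SE), ATG36_1 (2.66 ± 0.48 SE), ATG15 (2.61 ± 0.62 SE), ATG39_2 (2.45 ± 0.44 SE), ATG4_2 (2.31 ± 0.44 SE), ATG20_1 (2.28 ± 0.37 SE), ATG32_1 (2.09 ± 0.45 SE) and ATG3_2 (1.75 ± 0.38 SE). Without SpIB2 day 5 replicate 1, ATG32_2 was at 4.21, ATG3_1 at 2.79, ATG36_2 at 2.43 and ATG15 at 1.78. ATG15 and ATG3_2 had negative values in SpIB1 (-0.95 and -1.01, not called) and rose in SpIB2 (1.66 and 0.75).

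For ATG8_1 (1.99 ± 0.52 SE) and ATG33_1 (1.62 ± 0.41 SE) the call ended with library totals (1.199 and 0.86). The calls of the other 11 copies ended with library totals and without single libraries. ATG8_2 (1.61 ± 0.46 SE) lost it without SpIB1 day 2 replicate 3 (1.44) or SpIB1 day 5 replicate 1 (1.54), and ATG39_1 (1.77 ± 0.51 SE) without those libraries (1.65 and 1.496) or SpIB1 day 5 replicate 3 (1.76). ATG2_2 (1.76 ± 0.50 SE) lost it without SpIB1 day 5 replicate 1 (1.59). ATG26_1 (1.79 ± 0.52 SE) lost it without SpIB1 day 2 replicate 1 (1.77), or SpIB1 day 5 replicate 1 (1.75) or 2 (1.74), and ATG26_2 (1.90 ± 0.56 SE) without those (1.90, 1.83 and 1.91) or SpIB1 day 2 replicate 3 (1.84).

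The remaining 6 were close to the threshold. ATG1 (1.53 ± 0.53 SE, edgeR adjusted p = 0.0463) kept its call only when SpIB2 day 5 replicate 2 or 3 was the library left out, and was at 0.96 without SpIB2 day 5 replicate 1. ATG11_1 (1.76 ± 0.53 SE) kept it without SpIB1 day 2 replicate 3, SpIB2 day 2 replicate 3 or SpIB2 day 5 replicate 2 or 3, and was at 1.22 without SpIB2 day 5 replicate 1. ATG18_2 (1.29 ± 0.41 SE) kept it without SpIB1 day 2 replicate 1, SpIB1 day 5 replicate 3, SpIB2 day 2 replicate 2 or SpIB2 day 5 replicate 2 or 3, and ranged from 1.07 without SpIB2 day 5 replicate 1 to 1.31 without SpIB1 day 2 replicate 2 where it was lost. ATG21_2 (1.02 ± 0.36 SE) kept it without SpIB2 day 2 replicate 3 or SpIB2 day 5 replicate 2 or 3, and was at 0.77 without SpIB2 day 5 replicate 1. ATG34 (1.43 ± 0.48 SE) kept it without SpIB1 day 5 replicate 2, SpIB2 day 2 replicate 2 or SpIB2 day 5 replicate 2, and was at 1.09 without SpIB2 day 2 replicate 3. ATG40_1 (1.14 ± 0.37 SE) kept it without SpIB2 day 2 replicate 2 or 3 or SpIB2 day 5 replicate 2 or 3, and was at 0.94 without SpIB2 day 2 replicate 1. The groups have 3 libraries, too few for the test of a single library far from its group.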

How the results depend on the processing

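Leaving out each library in turn gave 5 to 14 ATG copies higher and 6 to 16 lower on day 2, 25 to 33 and 2 to 4 on day 5, 0 to 2 and 0 to 3 for the day effect in SpIB1, 21 to 29 and 0 to 3 for that in SpIB2, 12 to 25 and 0 to 0 for the difference of the day effects, and 12 to 15 symbols for the copy share. Library totals without TMM gave 16 higher and 8 lower on day 5, 17 and 3 for the day effect in SpIB2, 2 higher in SpIB1, and 10 and 2 for the difference. Without both SpIB2 libraries that stood apart the counts were 16 higher on day 2, 5 lower on day 5, and 3 and 7 in SpIB1, where DESeq2 gave 2 and 3 and the fit of only the 6 SpIB1 libraries 3 and 7. The fit of the 6 SpIB2 libraries gave 0 lower. With copies summed, 3 symbols were higher and 4 lower on day 2, and 17 were higher on day 5. Over the days 1 was higher in SpIB1 and 17 in SpIB2, all out of 34 symbols and not 61 copies. The cause of the moves in this paragraph was not tested, and calls over all copies can move in the same fits.

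Over the 103 calls of an ATG copy in a comparison, 2242 alternative values were computed, summed copies aside. The call was kept in 2003, lost in 239 (41 of them with library totals) and reversed in 0, and 52 calls were kept under each alternative. With summed counts ATG18_1, called lower on day 2, had the other sign and was not called (0.63). For copies not called, the sum had the other sign and was called for ATG18_1 on day 5 (1.78), ATG31_1 on day 5 (2.16) and over the days in SpIB2 (1.23), ATG38_2 on day 5 (-0.81) and ATG11_2 over the days in SpIB2 (0.95), since the sum includes the other copy. Library totals gave -0.70 for ATG3_2 and -0.66 for SNX4_1 on day 5. The alternatives for SNX4 and the other named pathway copies were chosen after seeing the data.

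Same-numbered replicates of different groups deviated with correlations of -0.573 to 0.481. Between the days these were 0.481, 0.00337 and 0.388 in SpIB1, and -0.405, -0.325 and -0.0353 in SpIB2. The labels state no pairing, and these values cannot settle whether there was one. With a replicate block the counts were 6 and 7 on day 2, 27 and 3 on day 5, 0 and 0 in SpIB1, 25 and 1 in SpIB2, and 17 and 0 for the difference. The copy share then had 64 arrangements, a smallest p of 0.0312 and a smallest adjusted p of 0.0581, so that 0 symbols could be called (exact permutation test). With 3 libraries a group and an ATG copy as low as 5 reads, small differences were not detectable.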
